A study of Mus musculus with 12 samples.

Results

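The transcripts described are those of 7 CXC chemokine genes (Cxcl1, Cxcl2, Cxcl3, Cxcl9, Cxcl10, Cxcl11 and Cxcl16) in mouse dendritic cells (DC) stimulated with poly(I:C), a synthetic analog of viral double-stranded RNA. The 7 genes were picked by name, and every probe set whose annotation names one of them and no other gene was taken, which gave 12 of the 45037 probe sets that are not controls (18193 genes in all). Levels were measured on 12 Affymetrix GeneChip arrays of the mouse genome, 1 for each of 6 times (0, 1, 3, 6, 12 and 24 h) in experiments 1 and 2. The 6 groups differed only in the hours with poly(I:C): in all of them C57BL/6 bone marrow from femurs and tibias was cultured with GM-CSF for 6 days before stimulation. The labels give poly(I:C) at 2.5 µg/ml, GM-CSF at 10 ng/ml and mice of 3 to 4 months, the growth protocol gives 8 to 10 weeks, and the published methods give higher concentrations of both agents. According to the methods, the mice were female, 1 mouse gave the cells of an experiment, and CD11c-positive cells were selected before stimulation. The experiments were done several months apart, each with a hybridization and normalization of its own. No unstimulated culture after 0 h was used, so hours in culture and hours with poly(I:C) cannot be told apart.

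CXC chemokines are small secreted proteins that guide leukocytes along a gradient. Cxcl1, Cxcl2 and Cxcl3 act through the receptor Cxcr2 and draw neutrophils, and their genes are classical targets of the transcription factor NF-kB. Cxcl9, Cxcl10 and Cxcl11 act through Cxcr3, draw activated T cells and NK cells, and are induced by interferons through factors that include Stat2, Irf9 and Irf1. Cxcl16 differs from both groups in being made as a transmembrane protein that can be shed by metalloproteases, and its receptor is Cxcr6. In the RefSeq annotation of GRCm38.p6, Cxcl11 is a transcribed pseudogene and the other members are protein coding, so its values below are of a transcript only.

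The promoters are shown first because NF-kB is named above for Cxcl1, Cxcl2 and Cxcl3, and interferon for Cxcl9, Cxcl10 and Cxcl11. These groups do not exclude each other, as Cxcl10 has kB matches too (below), and Cxcl16 is in neither. RefSeq promoter windows (build GRCm38.p6) were held for 5 of the 7 members, not for Cxcl11 and Cxcl16. The 250 bases before the transcription start lie at chr5:90890995-90891244 on the plus strand for Cxcl1, chr5:90903649-90903898 on the plus strand for Cxcl2, chr5:90785851-90786100 on the plus strand for Cxcl3, chr5:92328080-92328329 on the minus strand for Cxcl9 and chr5:92348890-92349139 on the minus strand for Cxcl10. Capitals mark matches, on either strand, to a kB site (GGGNNNTTCC), to an interferon-stimulated response element (GAAANNGAAA) or to an interferon gamma activated site (TTCNNNGAA), and overlapping matches run together.
Cxcl1: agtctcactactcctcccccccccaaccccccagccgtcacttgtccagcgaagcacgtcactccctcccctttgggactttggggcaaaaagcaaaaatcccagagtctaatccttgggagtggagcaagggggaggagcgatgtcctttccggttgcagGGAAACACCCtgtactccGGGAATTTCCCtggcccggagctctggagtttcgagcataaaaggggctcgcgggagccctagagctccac
Cxcl2: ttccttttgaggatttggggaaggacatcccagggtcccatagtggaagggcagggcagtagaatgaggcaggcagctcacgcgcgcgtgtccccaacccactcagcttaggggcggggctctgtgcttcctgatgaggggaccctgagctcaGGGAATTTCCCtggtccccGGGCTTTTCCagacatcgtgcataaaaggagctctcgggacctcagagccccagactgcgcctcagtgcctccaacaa
Cxcl3: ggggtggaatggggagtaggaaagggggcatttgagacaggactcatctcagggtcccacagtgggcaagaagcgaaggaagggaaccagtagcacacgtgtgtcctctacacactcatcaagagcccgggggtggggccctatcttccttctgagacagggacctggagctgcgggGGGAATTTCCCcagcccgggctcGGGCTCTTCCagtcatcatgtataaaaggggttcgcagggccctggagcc
Cxcl9: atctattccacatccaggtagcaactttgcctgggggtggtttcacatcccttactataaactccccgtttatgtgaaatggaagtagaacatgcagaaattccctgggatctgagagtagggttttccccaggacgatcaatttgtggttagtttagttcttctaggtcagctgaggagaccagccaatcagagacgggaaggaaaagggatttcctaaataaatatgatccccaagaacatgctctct
Cxcl10: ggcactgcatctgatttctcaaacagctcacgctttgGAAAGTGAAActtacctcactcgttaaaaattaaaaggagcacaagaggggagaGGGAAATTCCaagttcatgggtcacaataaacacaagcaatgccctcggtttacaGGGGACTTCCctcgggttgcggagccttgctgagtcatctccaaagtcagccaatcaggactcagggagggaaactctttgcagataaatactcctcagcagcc

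All 3 neutrophil attractants held the 11-base run GGGAATTTCCC, which matches the kB letters on both strands, at 71 (Cxcl1), 97 (Cxcl2) and 73 (Cxcl3) bases before the start. That run was picked from these windows, as the longest one that the 3 share. With the 3 counted, it was present in 14 of 32817 promoter windows (0.0427%). Each of the 3 also had a second kB match, at 89, 78 and 50 bases before the start, respectively. Cxcl10 had kB matches at 159 and 104 bases and an interferon-stimulated response element match at 213 bases before the start, and the Cxcl9 window matched none of the 3 motifs. Of all promoter windows of that length, 4.65% held the kB letters, 2.97% the interferon-stimulated response element letters and 7.01% the interferon gamma activated site letters. A match is a description of the letters and not a measured site, and the missing match in Cxcl9 concerns these letters in this window only.

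**Figure D1:**
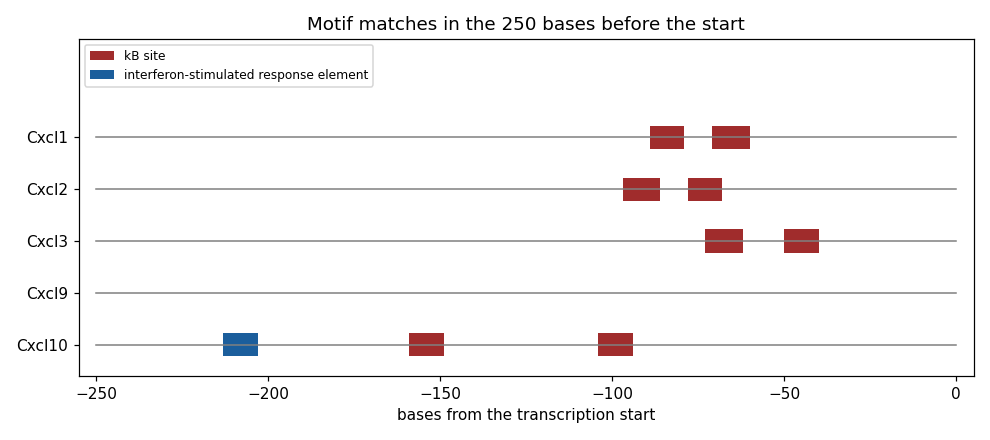
Position of each motif match (x axis, bases from the transcription start) in the 250 bases before the start of 5 CXC chemokine genes (y axis). Red boxes are kB matches and the blue box is the interferon-stimulated response element match; Cxcl1, Cxcl2, Cxcl3 and Cxcl10 each have kB boxes, and the blue box is in Cxcl10.

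The values are MAS5.0 signals, arbitrary units of brightness which are scaled on each array so that the mean without the top and bottom 2% is 500. Signals of different probe sets have different probes and are not compared with each other. Changes are given as log2 fold changes of signal plus 16 (± SE), where 16 is a constant that damps noise at low signal and makes the changes of dim genes smaller than their true size. They come from a limma model of all 12 arrays with terms for time and experiment (n = 2 at each time), and p-values were adjusted over all 22519 probe sets tested. A probe set "rose" or "fell" when its adjusted p was under 0.05. All 12 CXC chemokine probe sets passed the filter on mean signal, but those of Cxcl9 and Cxcl11 were dim at 0 h and passed through the later times. Probe sets of 1 gene are repeated readings of it, and not replicates.

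By 24 h the neutrophil attractants and the interferon-induced T cell attractants had moved in opposite directions from 0 h. At 1 h, 2 of the 12 probe sets had risen (Cxcl1 and Cxcl10), where 0.0533% of all probe sets tested had. The published study left its 1 h arrays out of filtering and clustering, because they correlated poorly between the experiments. At 3 h, 2 had risen (Cxcl10 and Cxcl11), against 1.01% of all, and at 6 h 3 had risen (Cxcl9, Cxcl10 and Cxcl11), against 3.62%. At 12 h, 7 were higher and 1 lower, against 9.32% and 18.7% of all. At 24 h, 5 were higher and 5 lower, against 9.23% and 17.5%, and the lower ones were the 5 probe sets of the neutrophil attractants. Without the experiment term in the model, 1 of these 5 (Cxcl2) and neither of the 1 h changes passed, and the fall at 24 h passed for 3 and 2 probe sets when the experiment 1 or the experiment 2 array of 0 h was left out. The share of all probe sets that were lower depends on the scaling: the array medians lay at -0.31 (12 h) and -0.24 (24 h) relative to 0 h on the log2 scale, and with each array centred on its median 3254 probe sets were higher and 2205 lower at 12 h, in place of 2098 and 4205, and 3165 were higher and 2574 lower at 24 h, in place of 2078 and 3933.

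**Figure D2:**
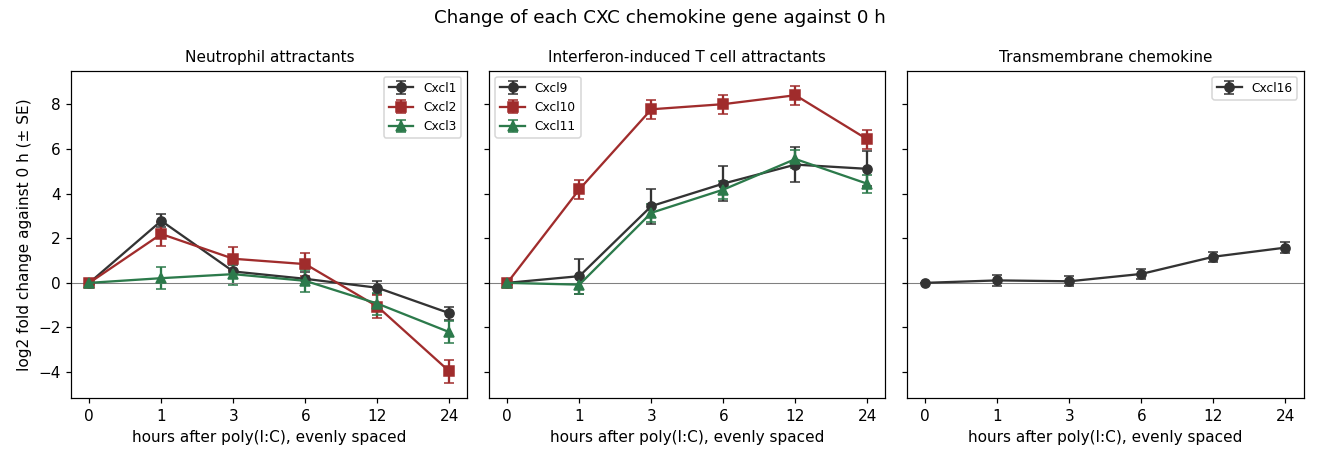
Log2 fold change of signal plus 16 against 0 h (y axis, ± SE) at each time (x axis, hours, evenly spaced) for the probe set with the highest mean signal of each of the 7 genes, n = 2 experiments. Cxcl1 and Cxcl2 are highest at 1 h and lowest at 24 h, Cxcl9, Cxcl10 and Cxcl11 stay above 0 from 3 h on, and Cxcl16 is highest at 24 h.

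Cxcl1, a neutrophil attractant also known as KC, was highest at 1 h in both experiments and lowest at 24 h on 5 of the 6 profiles of its 3 probe sets. The signal of probe set 1457644_s_at was 789 in experiment 1 and 442.5 in experiment 2 at 0 h, 6359 and 2733 (1 h), 1281 and 560.3 (3 h), 789.1 and 575.3 (6 h), 751.6 and 337.5 (12 h), and 223.5 and 217.4 (24 h). Both 1 h signals were above and both 24 h signals below every 0 h signal, as in 8.74% and 32.3% of all probe sets tested, respectively. The log2 fold change was 2.78 ± 0.29 at 1 h (limma adjusted p = 0.00662), a rise of 6.89-fold, and from 1 h to 3 h this probe set fell by 2.28 ± 0.29 (adjusted p = 0.00276). At 24 h it was below its starting level by a log2 fold change of -1.36 ± 0.29 (adjusted p = 0.00669).

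The other Cxcl1 probe sets followed the first, with r = 0.93 and r = 0.98 over the 12 arrays after centring each experiment, but with other sizes of change. Probe set 1419209_at gave 750.3 and 288 (0 h), 4058 and 1899 (1 h), 878.5 and 539.7 (3 h), 608.8 and 296.4 (6 h), 400.1 and 41.64 (12 h), and 76.69 and 42.75 (24 h). Its log2 fold change of 2.53 ± 0.44 at 1 h had a limma adjusted p of 0.252, though both arrays lay above those at 0 h, as in 8.74% of all probe sets tested. Its changes of -1.64 ± 0.44 at 12 h (limma adjusted p = 0.0205) and -2.71 ± 0.44 at 24 h (limma adjusted p = 0.0018) passed. Probe set 1441855_x_at, a type that may also bind related transcripts, gave 727.1 and 645.7 (0 h), 1700 and 1081 (1 h), and 387.6 and 404.9 (24 h), with 554.4 to 981.5 between. Its change was 0.97 ± 0.22 at 1 h (adjusted p = 0.867) and -0.77 ± 0.22 at 24 h (adjusted p = 0.0259).

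Several of the Cxcl1 calls rested on single arrays, while their direction did not change. For 1457644_s_at the 1 h call was lost without the experiment 1 array of 0 h (adjusted p = 0.172), the experiment 2 array of 0 h (0.153) or the experiment 1 array of 1 h (0.221), the 24 h call without either 0 h array (0.0506 and 0.0518), and the fall from 1 to 3 h without the experiment 1 array of 1 h (0.0669) or the experiment 2 array of 3 h (0.0576). The 12 h call of 1419209_at was lost without either 0 h array (0.109 and 0.0968) or the experiment 2 array of 12 h (0.141, with a log2 fold change of -0.69), and with the arrays centred on their median (0.052). The 24 h call of 1441855_x_at was lost without either 0 h array (0.091 and 0.169), without the experiment 1 array of 24 h (0.0697), and with centred (0.116) or quantile-normalized arrays (0.127). The 24 h call of 1419209_at held under all of these.

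Cxcl2, or MIP-2, the second ligand of Cxcr2 in the set, had the deepest late fall of the members. Its probe set 1449984_at gave 6139 and 3691 (0 h), 23556 and 20257 (1 h), 11923 and 8494 (3 h), 10435 and 6998 (6 h), 6469 and 798.2 (12 h), and 444.4 and 186.5 (24 h). At 1, 3 and 6 h both arrays were above both 0 h arrays, as in 8.74%, 13.1% and 15.0% of all probe sets tested. The log2 fold changes of 2.19 ± 0.52 at 1 h (adjusted p = 1, unadjusted p = 0.00164), 1.08 at 3 h (adjusted p = 0.723) and 0.84 at 6 h (adjusted p = 0.395) did not pass. At 12 h the experiments parted: the log2 ratio to 0 h was 0.08 in experiment 1 and -2.19 in experiment 2. By 24 h the ratios were -3.74 and -4.19, and the modelled change of -3.97 ± 0.52 (adjusted p = 0.000493) is a 15.6-fold fall below the level before stimulation. The fall from 12 to 24 h was -2.91 ± 0.52 (adjusted p = 0.0207) and was lost without the experiment 1 array of 12 h (-1.73, adjusted p = 0.0576).

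Cxcl3 is the third neutrophil attractant and was bright before poly(I:C) was added. Probe set 1438148_at gave 22301 and 17425 (0 h), 23984 and 21804 (1 h), 25761 and 25959 (3 h), 20309 and 21722 (6 h), 19107 and 5569 (12 h), and 8772 and 2062 (24 h). No early change passed: the log2 fold change was 0.21 ± 0.49 at 1 h (adjusted p = 1) and 0.39 ± 0.49 at 3 h (adjusted p = 0.983). How far so bright a probe set can still follow a rise was not tested. At 24 h it had fallen by 2.21 ± 0.49 (adjusted p = 0.00858), with log2 ratios of -1.34 in experiment 1 and -3.07 in experiment 2, a call lost without the experiment 2 array of 0 h (adjusted p = 0.0786). As with Cxcl2, the fall was already present at 12 h in experiment 2 (log2 ratio -1.64) and hardly in experiment 1 (-0.22).

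Cxcl10, or IP-10, was the one interferon-induced attractant that rose within the first hour. Its probe set 1418930_at gave 96.78 and 61.32 (0 h), 1988 and 1424 (1 h), 20569 and 20371 (3 h), 23464 and 24530 (6 h), 27950 and 36110 (12 h), and 4405 and 14678 (24 h). Every array from 1 h on was above both 0 h arrays. At a single time, both arrays were so in 8.74% (1 h) to 18.6% (12 h) of all probe sets tested. The log2 fold change of Cxcl10 was 4.19 ± 0.43 at 1 h (18.2-fold, limma adjusted p = 0.00662), 7.78 ± 0.43 at 3 h (219-fold, adjusted p = 7.44e-06), 8.01 ± 0.43 at 6 h (adjusted p = 2.06e-06), 8.41 ± 0.43 at 12 h (340-fold, adjusted p = 8.05e-07) and 6.43 ± 0.43 at 24 h (86.3-fold, adjusted p = 6.41e-06).

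Most of the measured Cxcl10 rise was over by 3 h. The step from 1 to 3 h was 3.59 ± 0.43 (adjusted p = 0.00202), and the next steps were 0.23 (adjusted p = 0.927) and 0.40 (adjusted p = 0.702). From 3 to 12 h this probe set was bright (20371 to 36110), and how far it could still follow a rise was not tested. From 12 to 24 h it fell by 1.98 ± 0.43 (adjusted p = 0.0366), with log2 ratios of -2.66 in experiment 1 and -1.30 in experiment 2. The last call is a narrow one: the adjusted p was 0.0506 to 0.171 when any one array of 0, 1, 3, 6 or 12 h was left out, each array in turn. The 1 h call was lost without the experiment 2 array of 0 h (adjusted p = 0.153) or the experiment 1 array of 1 h (0.221), and the calls at 3, 6, 12 and 24 h held without any one array.

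Cxcl11, or I-TAC, started later than Cxcl10. Probe set 1419697_at gave 40.13 and 68.41 (0 h), 36.85 and 63.76 (1 h), 803.3 and 431.7 (3 h), 1711 and 883.2 (6 h), 3935 and 2601 (12 h), and 1363 and 1612 (24 h). At 1 h its log2 fold change was -0.08 ± 0.40 (adjusted p = 1), and it then rose to 3.14 ± 0.40 at 3 h (8.8-fold, adjusted p = 0.00256), 4.18 ± 0.40 at 6 h (adjusted p = 0.000135), 5.55 ± 0.40 at 12 h (46.7-fold, adjusted p = 9.01e-06) and 4.44 ± 0.40 at 24 h (adjusted p = 5e-05). The step from 1 to 3 h was 3.22 ± 0.40 (adjusted p = 0.00245). Both the 3 h call and this step narrowly failed without the experiment 1 array of 3 h (adjusted p = 0.0587 and 0.0564), and each also without the experiment 1 array of its earlier time (0.0515 and 0.0507).

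A second, dimmer Cxcl11 probe set, 1419698_at, gave 14.43 and 47.68 (0 h), 18.31 and 1.361 (1 h), 135.2 and 73.66 (3 h), 232.4 and 97.47 (6 h), 349.8 and 194.5 (12 h), and 88.76 and 150.1 (24 h). It correlated with the brighter one at r = 0.93 over the 12 arrays. From 3 h on its arrays lay above both 0 h arrays, as in 13.1% to 18.6% of all probe sets tested at a single time. Of its changes against 0 h, that at 12 h passed (2.66 ± 0.57, adjusted p = 0.00723), and it was lost without the experiment 1 array of 0 h (1.82, adjusted p = 0.0808) or of 12 h (adjusted p = 0.0696).

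Cxcl9, or MIG, rose from very low signals, and from 3 h on its signals were higher in experiment 1 than in experiment 2. Probe set 1418652_at gave 7.064 and 6.781 (0 h), 9.517 and 15.27 (1 h), 765.2 and 63.74 (3 h), 1320 and 171.9 (6 h), 2171 and 354.4 (12 h), and 1534 and 391 (24 h). From 3 h on, the signal of experiment 1 was 12, 7.68, 6.13 and 3.92 times that of experiment 2, although the 0 h signals were alike. A gap in one direction as large as this at all 4 times, on the log2 scale of signal plus 16, was found in 0.187% of all probe sets tested. For the other Cxcl9 probe set, 1456907_at, the ratios were 7.91, 3.32, 4.11 and 1.37, and a gap as large as its smallest one was found in 12.3%. For Cxcl11 (1419697_at) the same ratios were 1.86, 1.94, 1.51 and 0.846, and for Cxcl10 they were 1.01, 0.957, 0.774 and 0.3.

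On probe set 1418652_at Cxcl9 was higher than at 0 h in both experiments from 3 h on, and its change passed from 6 h. The log2 fold change was 3.44 ± 0.78 at 3 h (adjusted p = 0.0917), 4.45 ± 0.78 at 6 h (adjusted p = 0.00854), 5.30 ± 0.78 at 12 h (39.3-fold, adjusted p = 0.000938) and 5.11 ± 0.78 at 24 h (adjusted p = 0.00124). The 6 h call was lost without the experiment 1 array of 0 h (3.43, adjusted p = 0.126) or of 6 h (3.79, adjusted p = 0.15). The dimmer probe set 1456907_at gave 7.466 and 21.91 (0 h), 9.276 and 66.04 (1 h), 184.8 and 23.35 (3 h), 259.5 and 78.19 (6 h), 450.4 and 109.7 (12 h), and 170.2 and 124.2 (24 h). Of its changes, that at 12 h passed (3.02 ± 0.86, adjusted p = 0.0246), until the experiment 1 array of 0 h (2.23, adjusted p = 0.192) or of 12 h (2.27, adjusted p = 0.2) was left out.

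The last step of Cxcl9 and Cxcl11 did not pass. From 12 to 24 h the log2 change was -0.18 ± 0.78 for Cxcl9 1418652_at (adjusted p = 0.924) and -1.10 ± 0.40 for Cxcl11 1419697_at (adjusted p = 0.143), and the differences between these steps and that of Cxcl10 were not tested. Against 0 h, 3 of the 5 probe sets of this group remained called higher at 24 h, one for each gene.

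Cxcl16, which DC can carry on their surface, rose at 12 h and 24 h. Probe set 1418718_at gave 7887 and 5262 (0 h), 8065 and 5977 (1 h), 7756 and 5907 (3 h), 9422 and 7721 (6 h), 13458 and 15674 (12 h), and 16975 and 21794 (24 h). Probe set 1449195_s_at gave 5969 and 3467 (0 h), 5769 and 3722 (1 h), 5238 and 3840 (3 h), 4980 and 4987 (6 h), 10164 and 10046 (12 h), and 12582 and 15476 (24 h). On both probe sets the 12 h and 24 h arrays were above every earlier array. Of all probe sets tested, 18.6% (12 h) and 18.5% (24 h) had both arrays above both 0 h arrays.

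The probe sets agreed in size as well as in timing (r = 0.98 over the 12 arrays). The log2 fold changes were 1.17 ± 0.23 and 1.15 ± 0.24 at 12 h (adjusted p = 0.00407 and 0.00665) and 1.58 ± 0.23 and 1.61 ± 0.24 at 24 h (2.98-fold and 3.06-fold, adjusted p = 0.000869 and 0.00117). Up to 6 h the largest of them was 0.40 ± 0.23 (adjusted p = 0.346). The 12 h calls of both were lost without the experiment 2 array of 0 h (adjusted p = 0.0541 and 0.0834) or of 12 h (0.0534 and 0.069), and the 24 h calls held without any one array.

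**Figure D3:**
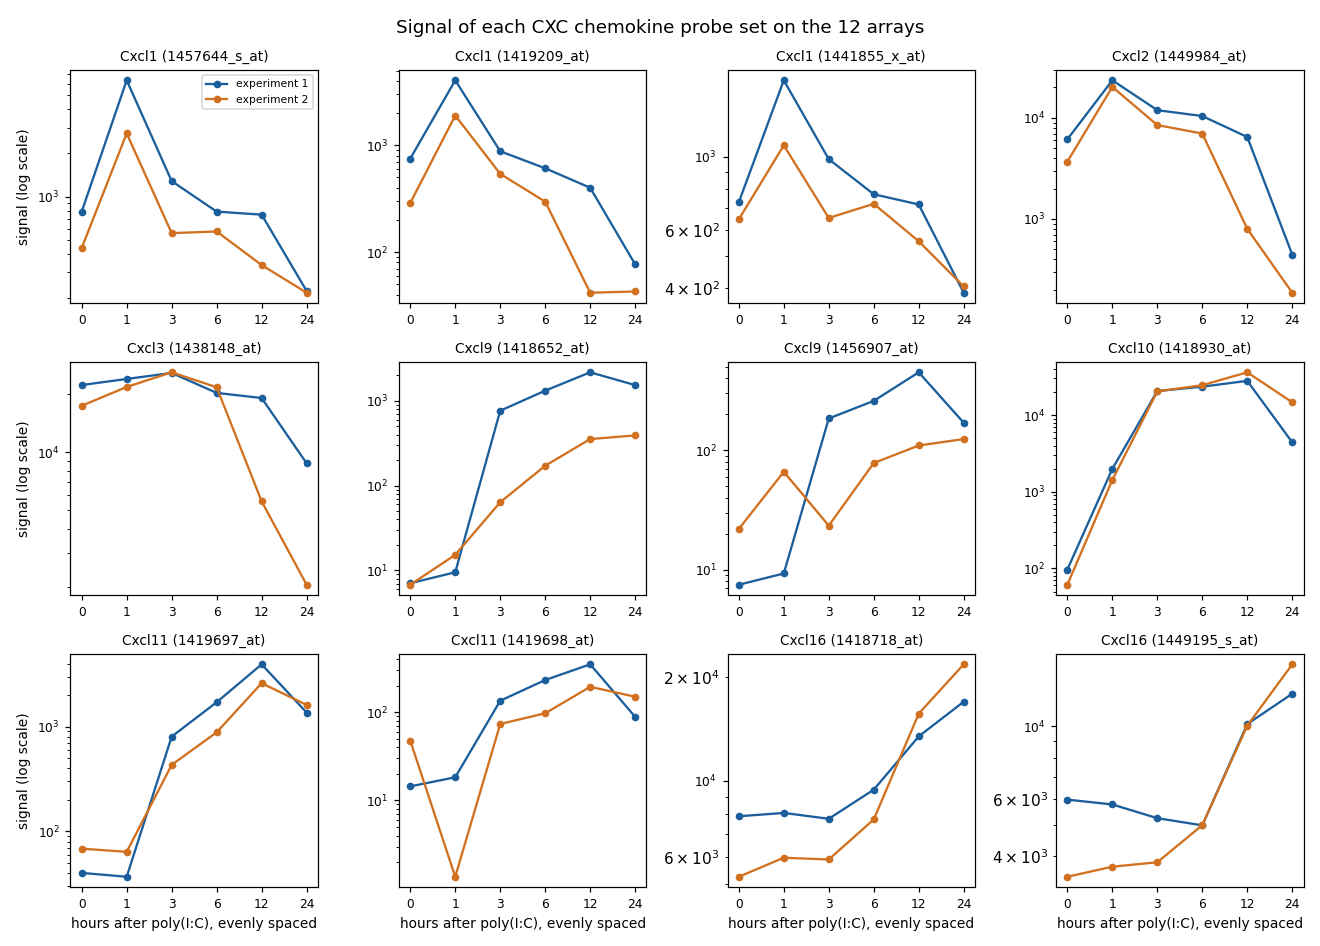
Signal (y axis, log scale, a range of its own in each panel) of the 12 CXC chemokine probe sets against hours with poly(I:C) (x axis, evenly spaced), with 1 point per array and 1 line per experiment. Cxcl2 and Cxcl3 fall at 12 h in experiment 2 and at 24 h in both, and the Cxcl16 lines rise at 12 and 24 h. For Cxcl9 the experiments lie far apart from 3 h on probe set 1418652_at, and closer at 24 h on 1456907_at.

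Between consecutive times, few member changes passed. From 1 to 3 h, 2 of 12 probe sets rose (Cxcl10 and Cxcl11) and 1 fell (Cxcl1), against 0.861% and 0.0666% of all probe sets tested. From 3 to 6 h and from 6 to 12 h none passed in limma, against 0.591% and 1.74% of all that changed either way. At an unadjusted p under 0.05 in limma there were 1 and 5, respectively. At that threshold, of all 22519 tested, 1034 were higher and 1179 lower from 3 to 6 h, and 1269 and 2521 from 6 to 12 h. From 12 to 24 h, 2 fell (Cxcl2 and Cxcl10), against 2.25% of all.

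Of the other CXC genes on the list, Cxcl5, another ligand of Cxcr2, and Ppbp changed. Of 8 such chemokines, 5 were tested, and Cxcl5 fell, from 899 and 180 (0 h) and 1264 and 317.8 at 1 h to 211.7 and 24.34 (12 h) and 89.22 and 2.647 (24 h). Its log2 fold change was -2.14 ± 0.27 at 12 h (adjusted p = 0.000404) and -3.26 ± 0.27 at 24 h (adjusted p = 3.05e-05). The platelet chemokine gene Ppbp fell by 0.56 ± 0.16 at 24 h (adjusted p = 0.0287), and for Pf4, Cxcl13 (1.26 at 24 h, adjusted p = 0.0832) and Cxcl14 no change passed. The calls of Cxcl5 held without any one array but not without the experiment term (adjusted p = 0.301 at 12 h and 0.122 at 24 h), and that of Ppbp was lost without either 0 h array (adjusted p = 0.0936 and 0.169), with centred arrays (0.27) and without the experiment term (0.126). Of all 10985 genes tested, 2263 were lower at 12 h and 1887 at 24 h, and their median log2 fold change was -0.20 and -0.13.

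The receptors of the members gave low signals in the DC themselves. Of 8 CXC receptor genes, 4 were tested, among them Cxcr3 and Cxcr6, whose changes did not pass. Cxcr2 stayed between 8.952 and 38.36 on all arrays, under the filter. Cxcr4, the receptor of Cxcl12, rose at 24 h from 236.7 and 402.6 to 1034 and 1260 (log2 fold change 1.83 ± 0.31, adjusted p = 0.00201), a call that held without any one array but not without the experiment term (adjusted p = 0.0853).

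Of the enzymes known to cut or shed CXC chemokines, Adam10 and Adam17, which can release Cxcl16 from the membrane, fell at 24 h, the time at which Cxcl16 was highest. Adam10 went from 5235 and 5116 at 0 h to 2726 and 1268 at 24 h (log2 fold change -1.47 ± 0.24, adjusted p = 0.00183), and Adam17 changed by -0.67 ± 0.15 (adjusted p = 0.00914). Of the metalloproteases, Mmp9 fell by 1.43 ± 0.18 at 24 h (adjusted p = 0.000411) and by 0.82 ± 0.18 at 12 h (adjusted p = 0.00805), Mmp8 rose by 0.45 ± 0.14 at 24 h (adjusted p = 0.0338) and Mmp12 by 0.55 ± 0.15 at 12 h (adjusted p = 0.024). The 24 h calls of Adam10 and Mmp9 held without any one array, the 12 h call of Mmp9 was lost without either 0 h array (adjusted p = 0.0524 and 0.0701), without the experiment 2 array of 12 h (0.0831), with centred arrays (0.0655) and without the experiment term (0.139), that of Adam17 was lost without the experiment 2 array of 0 h (adjusted p = 0.0973) and with centred arrays (0.0726), and with quantile-normalized arrays the changes of Mmp8 and Mmp12 were 0.13 and 0.01 (adjusted p = 0.459 and 0.932). Of 5 enzymes tested, 1 rose and 3 fell at 24 h, where 1259 and 1887 of the 10985 genes did.

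Some of the interferon signaling genes rose from 3 h on, and most by 12 h. Of 18 listed, 16 were tested, and 0, 6, 8, 13 and 10 were higher at 1, 3, 6, 12 and 24 h (at 1 h, when Cxcl10 was already up, 2 of the 16 had an unadjusted p under 0.05 in limma), with 1 lower at 12 h and 2 at 24 h. Over the same times 9, 138, 471, 1171 and 1259 of the 10985 genes were higher, and 2263 and 1887 were lower at 12 and 24 h. At 1 h, 128 of the 10985 were higher and 73 lower at an unadjusted p under 0.05 in limma. The median log2 fold change of the list was 0.04, 0.51, 0.91, 1.28 and 1.21, against -0.02, -0.06, -0.15, -0.20 and -0.13 over all genes tested.

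The genes called at 3 h were Stat2 (2.52), Irf1 (2.63), Irf7 (3.33), Irf9 (1.65), the feedback inhibitor Socs1 (2.21) and Usp18 (4.96), which restrains the interferon receptor, all as log2 fold changes. Each of them was still higher at 24 h, from 1.00 for Socs1 (adjusted p = 0.0407) to 6.73 for Irf7 (adjusted p = 5.82e-07). Ifnb1, which encodes interferon beta, gave 32.61 and 48.39 (0 h), 550.3 and 168.4 (1 h), 522.3 and 213 (3 h), 4588 and 1875 (6 h), 5290 and 3322 (12 h), and 86.13 and 841.6 (24 h). Its change was 2.53 ± 0.89 at 1 h (adjusted p = 1) and passed at 6 h (5.72 ± 0.89, adjusted p = 0.00401) and 12 h (6.23 ± 0.89, adjusted p = 0.000774). Ifng, which encodes the interferon that best induces Cxcl9, stayed between 3.021 and 37.38 and was under the filter.

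Receptor and kinase genes of the interferon pathway changed less and later. Ifnar2 rose by 1.01 at 12 h and 1.60 at 24 h, Ifngr2 by 0.79 and 0.85, and Tyk2 by 1.08 and 0.62 on the log2 scale. None of these calls passed without the experiment term (limma adjusted p = 0.0531 to 0.336). Ifnar1 (0.81) and Irf8 (1.48) were called higher at 12 h and Jak1 (0.72) at 24 h. Ifngr1 fell, by 0.94 at 12 h and 1.05 at 24 h (adjusted p = 0.0102 and 0.0064), and Jak2 was higher at 6 h (0.77) and 12 h (0.67) and lower at 24 h (-0.57, adjusted p = 0.017). Irf3 did not pass at any time. With each array left out in turn, the calls of Stat2, Irf1, Irf7, Irf9, Usp18 and Ifnar2 all held, while at least 1 call of Ifnb1 (6 h), Socs1, Ifnar1, Ifngr1, Ifngr2, Irf8, Jak1, Jak2 and Tyk2 was lost without some array.

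Among 17 tested genes of NF-kB control and mRNA decay, of 18 listed, Nfkbiz, an atypical inhibitor family member that also acts as a coactivator, rose early and fell late. It gave 375.9 and 205 (0 h), 3884 and 1626 (1 h), 1316 and 515 (3 h), 1865 and 735 (6 h), 1201 and 364.5 (12 h), and 188.9 and 59.69 (24 h), with log2 fold changes of 3.10 ± 0.22 at 1 h (adjusted p = 0.000939) and -1.24 ± 0.22 at 24 h (adjusted p = 0.00278). The deubiquitinase gene Tnfaip3, a feedback inhibitor, was the other of the 2 genes higher at 1 h (1.26 ± 0.16, adjusted p = 0.0221), and its change was 0.39 at 24 h (adjusted p = 0.0887). The 1 h and 24 h calls of Nfkbiz held without any one array, but neither passed without the experiment term (adjusted p = 1 and 0.344). The 1 h call of Tnfaip3 was lost without any one array of 0 or 1 h (log2 fold change 1.17 to 1.34) and of 3 or 6 h. It was also lost with centred arrays (limma adjusted p = 0.0858), with no trend (0.299) and without the experiment term (0.597). At 3, 6 and 12 h, 1, 3 and 9 of the list were higher and none was lower in limma, with 1, 0 and 1 lower at an unadjusted p under 0.05. Of the 10985 genes tested, 9, 138, 471 and 1171 were higher at 1, 3, 6 and 12 h. At 3, 6 and 12 h, 6, 255 and 2263 of them were lower, and 349, 1547 and 3174 at an unadjusted p under 0.05.

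The 9 NF-kB list genes higher at 12 h were Nfkb2 (0.89), Rel (0.99), Nfkbia (0.88), Nfkbib (1.61), Nfkbie (1.00), Nfkbiz (1.21), Bcl3 (0.99), Tnfaip3 (1.35) and the mRNA decay factor gene Zfp36 (0.99, and 1.14 at 6 h), in log2 fold change. At 24 h, 2 of 17 were higher (Nfkbib, 1.73, and Bcl3, 1.08) and 2 lower (Nfkbiz and Elavl1, -0.87, limma adjusted p = 0.00711), where 1259 and 1887 of the 10985 genes tested were. Nfkbia, the main inhibitor, was at 0.20 (limma adjusted p = 0.595). The 12 h calls of Nfkbib, Nfkbie, Nfkbiz and Tnfaip3 held without any one array, and each of the others was lost without some array: Nfkb2 without either 0 h array or the experiment 1 array of 12 h (adjusted p = 0.0879 to 0.157), Nfkbia without any array of 0 or 12 h (0.0793 to 0.131), Bcl3 without the experiment 1 array of 12 h (0.0533), Zfp36 without the experiment 1 array of 0 h (0.0836) or 12 h (0.0743), and Rel without either array of 0, 1 or 3 h or the experiment 1 array of 12 h (0.0573 to 0.297). The 24 h call of Elavl1 was lost without the experiment 2 array of 0 h (adjusted p = 0.0796). The list's median log2 fold change was 0.27 at 1 h, 0.88 at 12 h and 0.03 at 24 h, against -0.02, -0.20 and -0.13 over all genes tested. Nfkb1 was not analysed here, and Rela, Relb, Ikbkb, Ikbkg, Zfp36l1, Zfp36l2 and Zc3h12a, which encodes a nuclease that degrades inflammatory mRNAs, passed at no time.

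**Figure D4:**
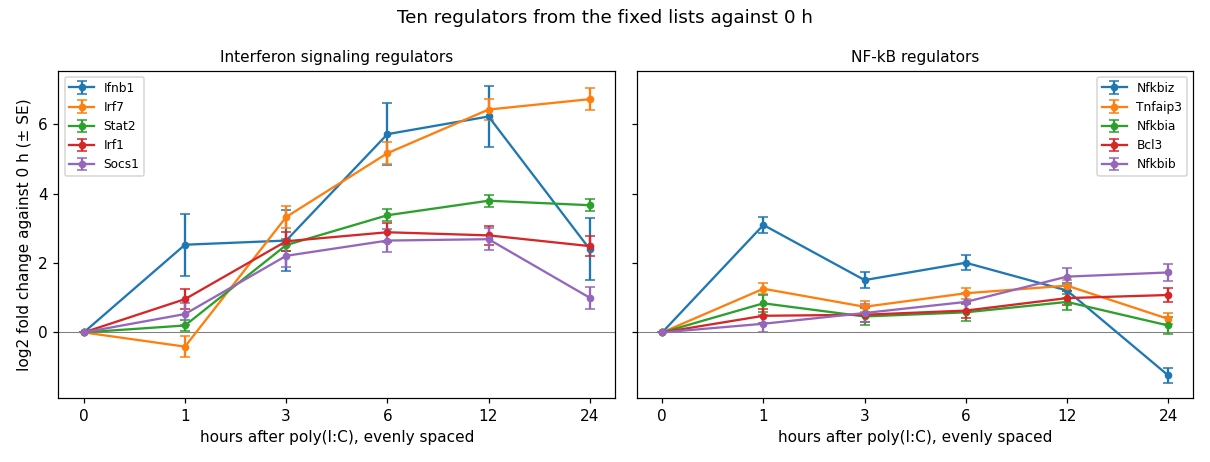
Log2 fold change of signal plus 16 against 0 h (y axis, ± SE, n = 2 experiments) at each time (x axis, hours, evenly spaced) for 5 interferon signaling genes (left) and 5 NF-kB genes (right), chosen from the lists after their values were seen. Irf7 and Stat2 stay high from 6 to 24 h, Ifnb1 is lower at 24 h than at 12 h, and Nfkbiz is highest at 1 h and below 0 at 24 h.

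For each member, the genes whose profiles were most like its own over the 12 arrays were found by Pearson's r after centring each experiment, as a description, since all genes share the arrays and the 6 times. Cxcl1 was closest to 4632427E13Rik (r = 0.918), Phlda1 and Cdv3, Cxcl2 to Gpr84 (0.961), Atp5a1 and Cnot11, and Cxcl3 to Cd44 (0.984), Swap70 and Txnrd1. Cxcl9 was closest to Spsb1 (0.983), Rbm43 and Batf2, Cxcl10 to Tiparp (0.991), Irf1 (0.965) and Leng9, and Cxcl11 to Daxx (0.993), Gm4951 and Stx11. Cxcl16 was closest to Itm2c (0.996), Tmem30a and Procr. Between the neutrophil attractants, r was 0.83 for Cxcl1 with Cxcl2, 0.92 for Cxcl2 with Cxcl3 and 0.59 for Cxcl1 with Cxcl3. Between the interferon-induced ones it was 0.98 for Cxcl9 with Cxcl11, 0.80 for Cxcl9 with Cxcl10 and 0.83 for Cxcl10 with Cxcl11. Cxcl16 ran against Cxcl3 (r = -0.93), Cxcl2 (r = -0.87) and Cxcl1 (r = -0.61). With Cxcl9, Cxcl10 and Cxcl11 its r was 0.67, 0.47 and 0.70.

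Of the 10 DC markers, all were on the array and 9 were tested. Itgax, which encodes CD11c, was between 16176 and 24684, Cd74 between 23216 and 34854 and H2-Aa between 16474 and 35908 on all arrays, while the DC factor Zbtb46 was between 165 and 563.9 and Flt3, under the filter, between 9.323 and 89.91. The macrophage gene Csf1r was bright as well (22071 to 32347). The maturation markers Cd86 (3.14 ± 0.23 at 12 h, adjusted p = 1.11e-05) and Ccr7 (3.36 ± 0.53 at 12 h, adjusted p = 0.00139) rose on the log2 scale, and both were called at 6 and 24 h too, but no call of Ccr7 held without the experiment term (adjusted p = 0.177 at 12 h). H2-Aa changed by 0.64 at 12 h and 0.73 at 24 h (adjusted p = 0.0345 and 0.021), calls that were lost without either 0 h array (0.0501 to 0.226). The DC markers Itgax, Cd74, H2-Ab1, Ciita, Batf3 and Zbtb46 passed at no time. Their log2 fold changes at 24 h were 0.02, 0.35, 0.68, -0.37, -0.53 and -0.45, respectively. Markers of other cells were summed over each list. The neutrophil list (8 of 10 genes on the array) summed to 1870 to 3851, of which S100a8 made up 1509 to 3401, while S100a9, Camp, Ltf, Mpo and Elane stayed between 2.942 and 109.7 and Ngp between 40.16 and 123.7. Csf3r was higher at 12 h (186.3 and 174.3, from 120.1 and 25.39 at 0 h; log2 fold change 1.39 ± 0.40, adjusted p = 0.0255), a call lost without the experiment 2 array of 0 h (0.241) or of 12 h (0.194). The T and NK cell list (6 of 8) summed to 87 to 291. The macrophage and monocyte list (6 of 8) summed to 50319 and 60704 at 0 h and to 82367 and 79646 (24 h). Of this list, Fcgr1, Mertk and Cd68 were higher at 12 and 24 h. Adgre1, Csf1r and Cd14 passed at no time, with log2 fold changes of 0.04, 0.04 and -0.01 at 24 h. The 12 h change of Cd68 was 0.51, and 0.18 with quantile-normalized arrays (limma adjusted p = 0.427). The endothelial marker Kdr rose by 3.20 ± 0.38 on the log2 scale at 12 h (adjusted p = 0.000263) while Pecam1 stayed at or under 14.32. Whether cells left after the CD11c selection had a part in the chemokine changes was not tested, and in these bulk cultures fewer cells of a type and less RNA per cell cannot be told apart.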

How the data were processed

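RNA of DC at 6 times with poly(I:C) was hybridized to 12 Affymetrix GeneChip arrays of the mouse genome, 1 per time and experiment. The authors summarized the probes with MAS5.0 and standard settings, and the deposited intensity values are linear signals of 45101 probe sets; each array's mean without the top and bottom 2% is 500. Detection calls and scans were not used here, so it is not known which dim signals are above background. The annotation gives 1 gene for 34945 of the 45037 probe sets that are not controls, several for 932 and none for 9160. The genes, lists and tests were chosen with earlier results of these data known.

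Log2 of signal plus 16 was fitted with limma 3.58.1 (R 4.3.3) with time and experiment as terms and an intensity trend (5 residual and 5.24 prior degrees of freedom), on the 22519 probe sets with a mean signal of at least 78.4, the median. P-values were two-sided, with Benjamini-Hochberg adjustment within each comparison at 0.05. All comparisons with 0 h share its arrays. The genes named are all members, the list genes called at any time against 0 h (markers included), the 3 most like each member, and others where a value is given for them. A list gene is represented by its probe set with the highest mean signal. The fit was also run on simulated arrays with normal noise and changes set at 3 h alone, and its outcome is not used as support here. Experiments pair the arrays, as the methods state; deviations from the time means correlated at r = 0.26 to 0.66 over 15 pairs of times. Alternatives were other constants (1, 64), other filters, centred or quantile-normalized arrays, no experiment term, no trend, the compared times alone, no 1 h arrays and each array left out. The number of arrays limits the precision. Python 3.11.15 with pandas 2.3.3, numpy 2.4.6 and matplotlib 3.10.9 was used for the rest.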

Additional observations from a re-analysis of the deposited data

How the results depend on the processing

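Of the 30 changes of chemokine probe sets that passed, none reversed. Past the threshold stayed 272 of 293 values under other settings and 319 of 360 with 1 array left out, and 13 of the 30 did so throughout. The log2 fold change can move only with another constant, with centred or quantile-normalized arrays, or without an array of a compared time. For the rest, among them most of the 360 values, a reversal was not possible. Without the replicate block (the experiment term), the counts of member probe sets were 0 higher at 1 h, 0 lower at 12 h, 1 lower at 24 h, 0 lower from 1 to 3 h and 0 lower from 12 to 24 h; 7 interferon list genes were higher at 12 h, and by 24 h 5 were higher, 1 lower; of the NF-kB list, 0, 0, 1 and 4 were higher at 1, 3, 6 and 12 h, and by 24 h 1 was lower. Outside these lists and the members, the calls lost without the block were Cxcl5 at 12 and 24 h, Ppbp and Cxcr4 at 24 h, Mmp9 and Mmp12 at 12 h, Mmp8 at 24 h, Cd86, Mertk, Fcgr1 and Kdr at 6 h, Ccr7 at 6, 12 and 24 h, H2-Aa and Cd68 at 12 and 24 h, and Csf3r at 12 h. Over all probe sets, 0, 88, 350, 1079 and 953 were then higher at 1, 3, 6, 12 and 24 h, in place of 12, 228, 815, 2098 and 2078, and 1936 (12 h) and 1671 (24 h) were lower, in place of 4205 and 3933. With centred arrays, 0 member probe sets were lower at 12 h, the interferon list had 0 lower at 12 h and 1 at 24 h, and the NF-kB list 1 higher at 1 h and 4 higher at 24 h. With no trend, 0 were higher at 1 h and 0 lower from 12 to 24 h; a constant of 64 gave 2 lower from 1 to 3 h; without the 1 h arrays 1 was lower from 12 to 24 h. With the arrays of the compared times alone, 5, 6 and 6 were higher at 1, 3 and 6 h, 2 lower at 12 h, 4 lower from 1 to 3 h, 4 higher and 2 lower from 3 to 6 h, and 4 higher and 3 lower from 6 to 12 h. With each array left out in turn, counts ranged as follows. Higher than at 0 h were 0 to 4 at 1 h and 1 to 3 at 3 h; lower were 0 to 2 at 12 h and 2 to 5 at 24 h. From 1 to 3 h, 1 to 2 rose and 0 to 2 fell, from 6 to 12 h, 0 to 3 rose and 0 to 2 fell, and from 12 to 24 h, 0 to 2 rose and 0 to 4 fell. Where a setting has fewer arrays, this is part of its construction; otherwise the cause was not tested. With 2 arrays per time, a change of dim signals, as of Cxcl9 before 3 h, has little precision.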
